A study of Mus musculus with 19 samples.

Results

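The numbered zinc finger genes are the mouse genes named Zfp and a number, with or without a letter, and they were read here in cells that lacked the miR-290 cluster, the miR-302 cluster or both. Rows of the expression matrix were taken by that name alone, leaving out Zfp42, a pluripotency marker that is listed with the other markers below. This gave 324 of the 12778 features. The 19 libraries were made by QuantSeq, a method that reads the 3' end of mRNAs, from mouse cells grown in medium with LIF and serum. The induced pluripotent stem cells (iPSC) came from embryonic fibroblasts given Oct4, Sox2 and Klf4. Their genotypes were wild type (3 libraries), miR-290 knockout, miR-302 knockout, and the knockout of both clusters, called double knockout here (4 libraries in each knockout group, from 2 colonies with 2 libraries each). Embryonic stem cells (ESC) with the miR-290 knockout or the miR-302 knockout had 2 libraries each. Each colony was an independent derivation per the series description, which makes an exception for the wild-type iPSC, so the 3 wild-type libraries may stand for 1 derivation. The libraries do not read the mature microRNAs, so the deletions were taken from the labels.

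Most genes with these names encode proteins with C2H2 zinc fingers, short domains in which a zinc ion holds a fold that reads DNA, or in some members RNA. Many also carry a KRAB box, which recruits the corepressor Trim28 and with it histone deacetylases, the H3K9 methyltransferase Setdb1 and heterochromatin proteins. KRAB zinc finger proteins are known in mouse stem cells as repressors of endogenous retroviruses and as guardians of imprinted DNA methylation, and their genes lie in arrays of near copies. The miR-290 and miR-302 clusters encode the most abundant microRNAs of pluripotent cells. A microRNA pairs with its target RNA mainly through its seed, and pairing lowers the level of the target; several microRNAs of the clusters share one seed.

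A KRAB box was found by sequence in the protein of 183 members and was not found in 139, and the other 2 (Zfp191 and Zfp607) had no entry in the annotation used (GENCODE M21, built on mm10). A protein counted as matching where at least 9 of 16 core positions of the box were present, so a divergent box would be missed. The KRAB members had a median of 12 C2H2 fingers and the members with no match a median of 7, with a range of 0 to 37 over all members. Levels are in CPM, reads scaled to a common library size, recovered from the deposited log2 values. The median member had a mean level over all samples of 11.6 CPM, against 22.8 CPM over all features, with 8.05 CPM for KRAB members and 17.2 CPM for the rest. Together the members took 0.575% to 0.688% of the reads of a library. Whole reads could be recovered for 280 members. Of the 44 members without whole reads, 42 had a KRAB match, which is 23.0% of the KRAB members, against 0.719% of the members with no match and 4.27% of all features. These 44 are given on the deposited log2 scale. Reads that also match a near copy are uncertain for the KRAB members as a class.

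The 5 members with the highest mean level had no KRAB match. Zfp207, which binds microtubules and the spindle checkpoint protein Bub3, had a mean of 348 CPM. Zfp106, an RNA-binding protein, had 315 CPM, and Zfp706 had 259 CPM. Zfp292 had 207 CPM and Zfp428 had 200.0 CPM. These 5 did not behave alike in the double knockout. Zfp207 was at 243 and 273 CPM in the double knockout colonies and at 367, 395 and 395 CPM in wild-type iPSC, a fall of 0.58 on the log2 scale. Zfp706 was at 300.0 and 336 CPM against 221, 183 and 235 CPM, a rise of 0.58. Zfp292 was at 173 and 185 CPM against 179, 205 and 181 CPM and was not called (log2 difference -0.08, limma adjusted p = 0.781).

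The comparison of double knockout with wild-type iPSC asked which members differ when both clusters are missing. In the double knockout 72 members rose and 48 fell, 120 of 324 at a limma adjusted p under 0.05. Zfp608 and Zfp711 rose most, and Zfp936, Zfp459 and Zfp775 fell most. The same rule called 49.0% of all features, 27.4% higher and 21.5% lower, beside 37.0% of the members. Their median log2 difference was 0.25, against 0.16 over all features, and the values ran from -8.36 to 5.62. KRAB members split evenly, with 26 higher and 26 lower and a median of 0.11, while members with no KRAB match had 46 higher and 21 lower and a median of 0.39. Scaling the libraries by the median of ratios moved the median of all features by -0.14, the KRAB median to -0.03 and that of the members with no match to 0.25, so the sign of the KRAB median depends on the scaling. Leaving out double knockout colony 1 left 66 calls, 37 higher and 29 lower, with 35.2% of all features called. The double knockout cells also differed in state: the summed level of 10 pluripotency markers was 72.3 to 111 CPM in them and 2941 to 4176 CPM in every other group, with none of the 10 at 0 reads. Of 10 fibroblast markers the matrix holds 4, which summed to 6.14 to 42.4 CPM in the double knockout and 6.91 to 9.26 CPM in wild-type iPSC. These 4 did not move together: Fbln2 rose (4.2), Thy1 (-3.86) and Pdgfrb (-2.72) fell, and Col1a1 was not called (-1.92, limma adjusted p = 0.123). The part of cell state in the changes below was not tested, and fewer cells of a type cannot be told apart from less RNA per cell.

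**Figure D1:**
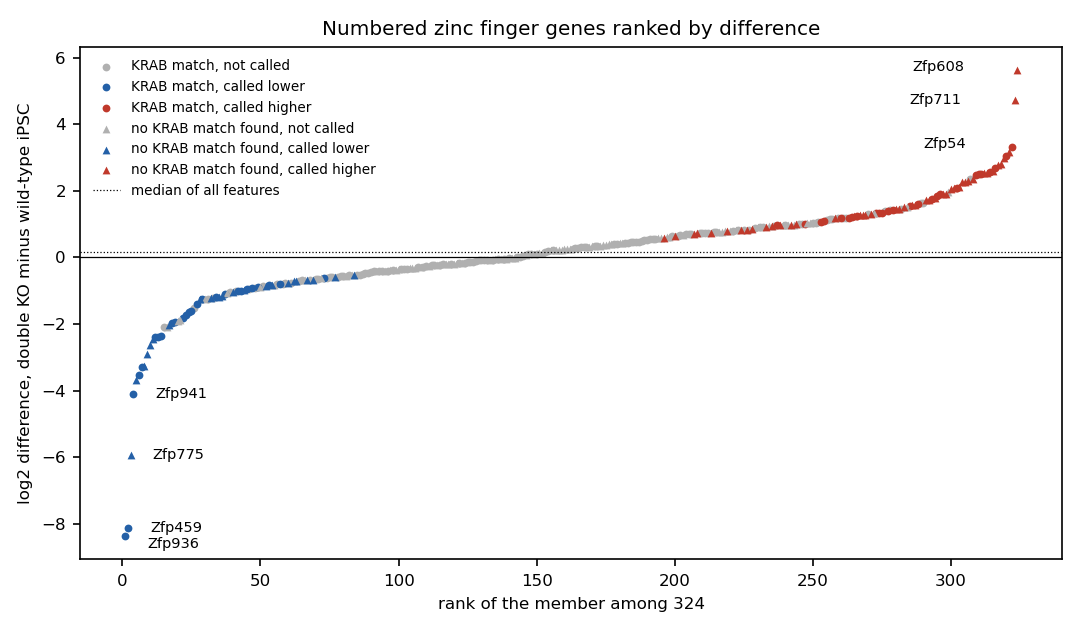
Log2 difference between double knockout and wild-type iPSC for the 324 members (vertical axis) by rank (horizontal axis); circles are members with a KRAB match, triangles members with none found, and colours give the call. A few members lie far below the rest, down to -8.36, and the highest is at 5.62; the dotted line is the median of all features, 0.16.

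Zfp459, a KRAB member with 3 fingers, was present in every other group and nearly absent from the double knockout. It was at 61.2, 65.6 and 74.1 CPM in wild-type iPSC, 41.3 and 33.8 CPM in the miR-290 knockout colonies, 51.4 and 59.7 CPM in the miR-302 knockout colonies, 71.5 and 44.8 CPM in miR-290 knockout ESC and 50.6 and 55.7 CPM in miR-302 knockout ESC. The double knockout colonies had 0.0659 and 0.151 CPM, from 7 reads over 4 libraries against 3314 reads in wild-type iPSC. No sample of another group came near the double knockout, and the log2 difference from wild type was -8.12 (SE 0.26, limma adjusted p = 2.13e-10). Zfp936, another KRAB gene, behaved in the same manner on the deposited log2 scale, on which it had no whole reads: 6.73, 6.63 and 6.34 in wild-type iPSC, 6.34 to 7.18 over all samples outside the double knockout, and -1.80 and -1.79 in the double knockout colonies. Its difference was -8.36 (SE 0.22, limma adjusted p = 8.48e-11).

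Zfp775, with 12 fingers and no KRAB match, was at 9.78, 6.87 and 13.7 CPM in wild-type iPSC and at 4.69 to 11.9 CPM in the single knockouts and ESC. The double knockout colonies had 0.0372 and 0 CPM, which is 1 read against 490 in wild type. That ratio is 601 with an exact 95% interval of 107 to 23800, which covers counting error only. Zfp941, a KRAB member, was at 7.31, 8.41 and 6.31 CPM in wild type and at 0.297 and 0.465 CPM in the double knockout, with 4.94 to 9.36 CPM in the remaining samples. For both genes the double knockout lay below every other sample (log2 differences of -5.92 and -4.10).

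Zfp819, a KRAB protein known from pluripotent cells and from the repression of retroelements, was at 30.4, 27.3 and 15.6 CPM in wild type and at 1.24 and 2.99 CPM in the double knockout (log2 difference -3.52, SE 0.39, limma adjusted p = 1.30e-05). Zfp473, which in human cells takes part in the processing of histone mRNA, was at 31.5, 24 and 22.5 CPM and fell to 1.89 and 3.67 CPM (-3.25). Zfp618, a binder of hydroxymethylated DNA, was at 4.16, 6.98 and 3.37 CPM and fell to 0.0988 and 0.486 CPM (-3.68). Of these 3, Zfp618 was the only one whose double knockout samples came close to another sample, since 1 miR-302 knockout ESC library had 0.546 CPM. The remaining large falls were Zfp534, at -3.28 on the log2 scale with no whole reads, Zfp536, at -2.90 from 1 read against 63 (ratio 77.3, exact 95% interval 13.4 to 3102), and Zfp710, which went from 69.8, 87.7 and 83.7 CPM to 12.2 and 13.9 CPM (-2.62).

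The member that rose most was Zfp608, a large protein with a single finger. It was at 0.393, 0.605 and 0.431 CPM in wild-type iPSC and at 28.9 and 32.1 CPM in the double knockout (log2 difference 5.62, SE 0.69, limma adjusted p = 3.38e-05). The single knockout iPSC colonies had 1.38 and 1.33 CPM without miR-290 and 2.16 and 0 CPM without miR-302, and the ESC had 1.15 and 1.30 CPM and 0.255 and 0.273 CPM. Zfp711, an X-linked member that binds the histone demethylase Phf8 and is linked to intellectual disability in people, was at 2.64, 1.43 and 1.08 CPM in wild type and at 46.3 and 46.4 CPM in the double knockout. Its other samples lay between 0 and 4.98 CPM, and the log2 difference was 4.72 (SE 0.96, limma adjusted p = 0.00144). Both genes were low in every group except the double knockout, where the colonies had like levels.

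Zfp423, a partner of Ebf factors in adipocyte and cerebellar development, rose from 10.1, 9.89 and 5.67 CPM to 62.5 and 54.0 CPM (log2 difference 2.79). Zfp503, a regulator of striatal and limb development, was at 0.675, 0.275 and 1.79 CPM and at 12.3 and 5.04 CPM (3.18). Zfp54, a KRAB gene, was at 1.24, 1.04 and 0.144 CPM and at 8.91 and 6.62 CPM (3.32). For Zfp423 the miR-290 knockout colonies, at 23.9 and 21.7 CPM, lay between wild type and double knockout. Zfp287 (3.04), Zfp768 (3.0), Zfp800 (2.82), Zfp931 (2.69, no whole reads) and Zfp637 (2.61) complete the 10 largest rises. Zfp768 differed between the double knockout colonies, at 62.6 and 21.3 CPM, and was at 3.77 to 15.2 CPM in all other samples. Zfp54, Zfp503, Zfp287 and Zfp931 were not called when double knockout colony 1 was left out (values of 3.11, 2.56, 2.84 and 2.80), nor were Zfp287 and Zfp931 without colony 2.

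**Figure D2:**
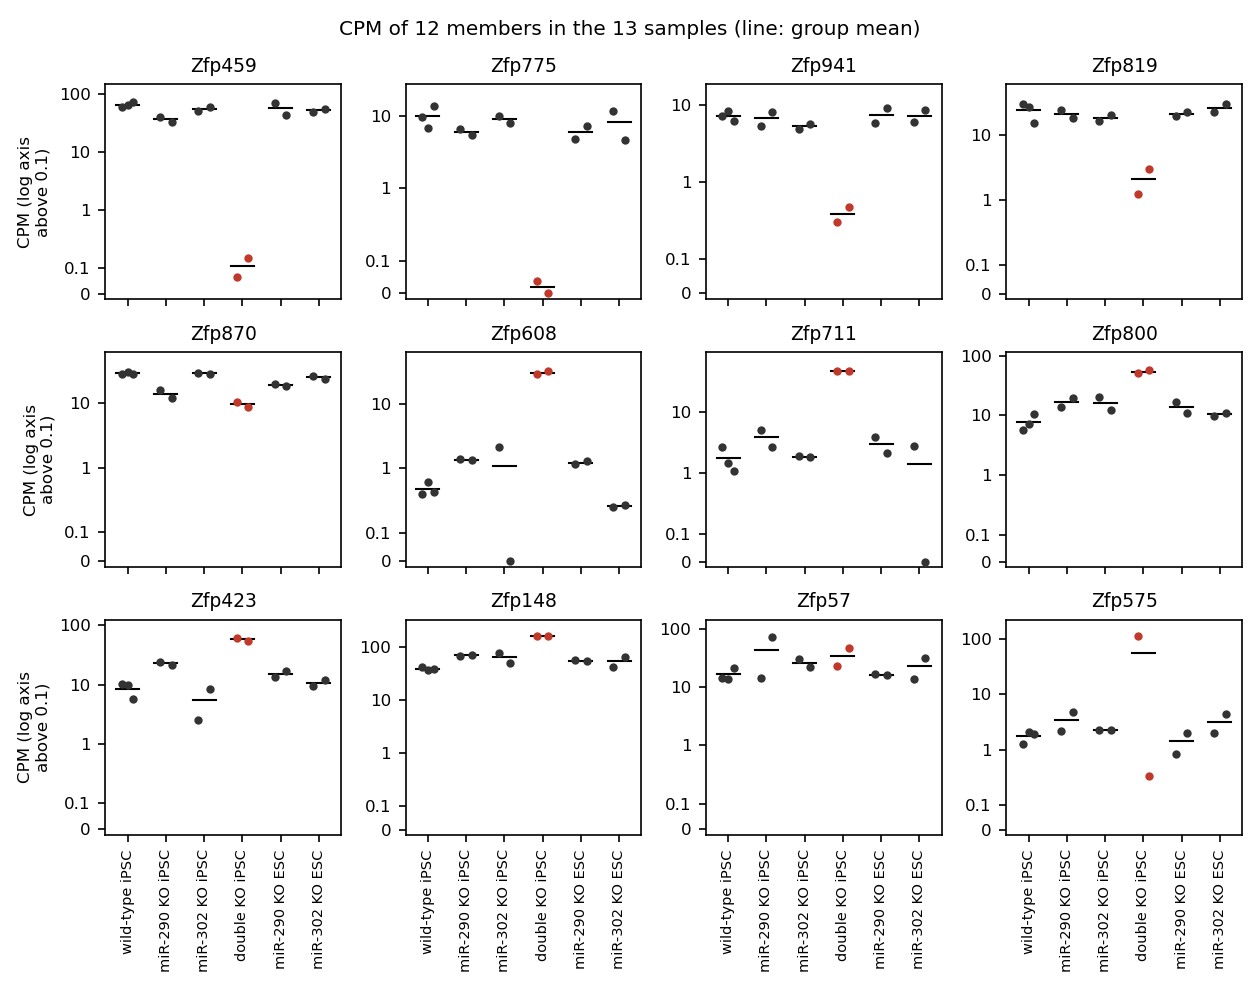
CPM (vertical axis, logarithmic above 0.1 and linear below) of 12 members in the 13 samples; each point is a wild-type or ESC library or the mean of a colony's 2 libraries, lines are group means, and the double knockout is in red. Zfp459, Zfp775, Zfp941 and Zfp819 were lowest and Zfp608, Zfp711, Zfp800, Zfp423 and Zfp148 highest in the double knockout, while the colonies of Zfp575 lay apart at 112 and 0.339 CPM.

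Members with a known role were sorted into 4 lists, whose counts are to be read against the 27.4% of all features called higher and 21.5% called lower. Of 8 repressors of retroelements or imprinted loci, none rose and 2 fell (25% called), with a median log2 difference of -0.15. The 2 were Zfp819 (above) and Zfp568, a repressor of a placental Igf2 transcript, which went from 82.6, 61.3 and 88.3 CPM to 40.1 and 46.3 CPM (-0.83, limma adjusted p = 0.0118). The call of Zfp568 was lost without double knockout colony 1 and in the fit blocked on replicate number (-0.72 in both). Zfp57, which with Zfp445 holds DNA methylation at imprinting control regions, was at 14.5, 13.8 and 21.2 CPM in wild type and at 22.8 and 46.7 CPM in the double knockout, a difference of 1.00 that was not called (SE 0.58, limma adjusted p = 0.172). Its levels varied within a genotype, with 14.1 CPM in one miR-290 knockout colony and 71.9 CPM in the other. Zfp809, which silences murine leukemia virus in embryonic cells, was at 18.6, 16.7 and 28.4 CPM and at 15.4 and 19.8 CPM, which overlap (-0.24, limma adjusted p = 0.513). Zfp445 (0.28), Zfp708 (0.47), Zfp932 (-0.05) and Zfp961 (-0.79) were not called either.

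Of 11 regulators described in stem cells, 4 rose and 4 fell (72.7% called, against 49.0% of all features), with a median of -0.01. Zfp296, a Klf4 partner that aids reprogramming, fell from 50.6, 38.4 and 79.9 CPM to 5.36 and 18.5 CPM (-2.45, SE 0.48, limma adjusted p = 0.00111). Zfp553 fell from 18.4, 11 and 24.5 CPM to 3.36 and 5.09 CPM (-2.02). Zfp281, which interacts with core pluripotency factors and acts in the passage to the primed state, fell from 95, 88.8 and 90.3 CPM to 53.5 and 53.9 CPM (-0.77, limma adjusted p = 0.0233). In these 3 the wild-type and double knockout samples did not overlap, which also held for 71.2% of all features and 69.4% of members. Zfp281 was not called in the fit blocked on replicate number (-0.77) or without wild-type replicate 1 (-0.74). Nor was it called without either double knockout colony (-0.76 and -0.77). The fourth that fell was Zfp207. The risers were Zfp322a (1.26), Zfp410, the dedicated activator of Chd4 (0.99), Zfp131 (0.74, limma adjusted p = 0.0345) and Zfp706 (0.58). The call of Zfp131 was lost in 10 of 24 alternatives, among them median-of-ratios scaling (0.60) and leaving out any 1 wild-type library or double knockout colony. Those of Zfp207 and Zfp410 were lost without double knockout colony 1 (-0.50 and 0.93), and that of Zfp706 without colony 2 (0.50). Chd4 itself, at 315 ± 58.8 CPM (SD, n = 3) in wild type and 397 ± 30.5 CPM (SD, n = 2 colonies) in the double knockout, was not called (0.35, limma adjusted p = 0.257). Zfp143 (-0.01), Zfp217 (-0.26) and Zfp462 (0.77) were not called.

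Of 15 developmental or tissue regulators 6 rose and 1 fell (46.7% called, close to the 49.0% of all features), with a median of 0.93. Besides Zfp423 and Zfp503 the risers were Zfp365, known from neurons and from telomere stability, which went from 9.05, 5.22 and 5.96 CPM to 44.9 and 33.8 CPM (2.54), Zfp148, a binder of GC-rich promoters (2.05), Zfp385a, a p53 cofactor (1.58, not called without double knockout colony 2, at 1.33), and Zfp704 (0.93). Zfp148 was at 42.0, 37.7 and 39.4 CPM in wild type, at 164 and 166 CPM in the double knockout and at 42.6 to 79.8 CPM elsewhere. The one that fell was Zfp536, a brake on neuronal differentiation. Of 11 members that act on RNA, ribosomes or protein turnover, 3 rose and 4 fell (63.6% called). Zfp326, a subunit of a complex that links RNA polymerase to splicing, rose from 26.2, 25.7 and 29.3 CPM to 108 and 82.8 CPM (1.79, SE 0.24, limma adjusted p = 6.33e-05), with 33.5 to 64.4 CPM in all the single knockouts. Zfp36, or tristetraprolin, which destabilises mRNAs with AU-rich elements, rose from 1.41, 3.52 and 2.73 CPM to 7.35 and 9.42 CPM (1.73), and Zfp91, a ubiquitin ligase, rose by 0.71 on the log2 scale. Zfp598, the sensor of collided ribosomes (-1.04), Zfp106 (-0.72), Zfp207 (-0.58), which stands in both lists, and Zfp622, a factor in large ribosomal subunit maturation (-0.52), fell. The call of Zfp622 was lost in 8 of 24 alternatives, with values from -0.58 to -0.46. Without double knockout colony 1 Zfp598 was not called (-0.74), and without colony 2 neither Zfp106 (-0.49) nor Zfp36 (1.55) was; the block also ended the call of Zfp598 (-0.87).

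Of 26 corepressors and partners of KRAB proteins in the matrix 6 were higher and 9 lower in the double knockout (57.7% called, against 49.0% of all features), with a median of 0.03. Trim28 itself was at 1561 ± 425 CPM (SD, n = 3) in wild-type iPSC and at 725 ± 78.5 CPM (SD, n = 2 colonies) in the double knockout (-1.1, SE 0.22, limma adjusted p = 0.00184), with group means of 1597 to 1740 CPM in the other 4 groups. Dnmt3b, a de novo DNA methyltransferase, fell most (-3.58), and Hdac1 (-1.51), Fam208a of the HUSH complex (-1.30) and the histone chaperone Daxx (-1.22) also fell. Chd3 (1.76) and Hdac2 (1.31) rose, and Setdb1 was not called (0.41, limma adjusted p = 0.237). Families did not move as one: of the HUSH complex Mphosph8 also fell (-0.72) but Pphln1 rose (1.04). Of the heterochromatin proteins Cbx3 rose (0.73), Cbx1 fell (-0.79) and Cbx5 was not called (0.04). Summed over the 25 with whole reads, the partners took 5762 to 6124 CPM in the double knockout and 6357 to 7373 CPM in wild type.

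**Figure D3:**
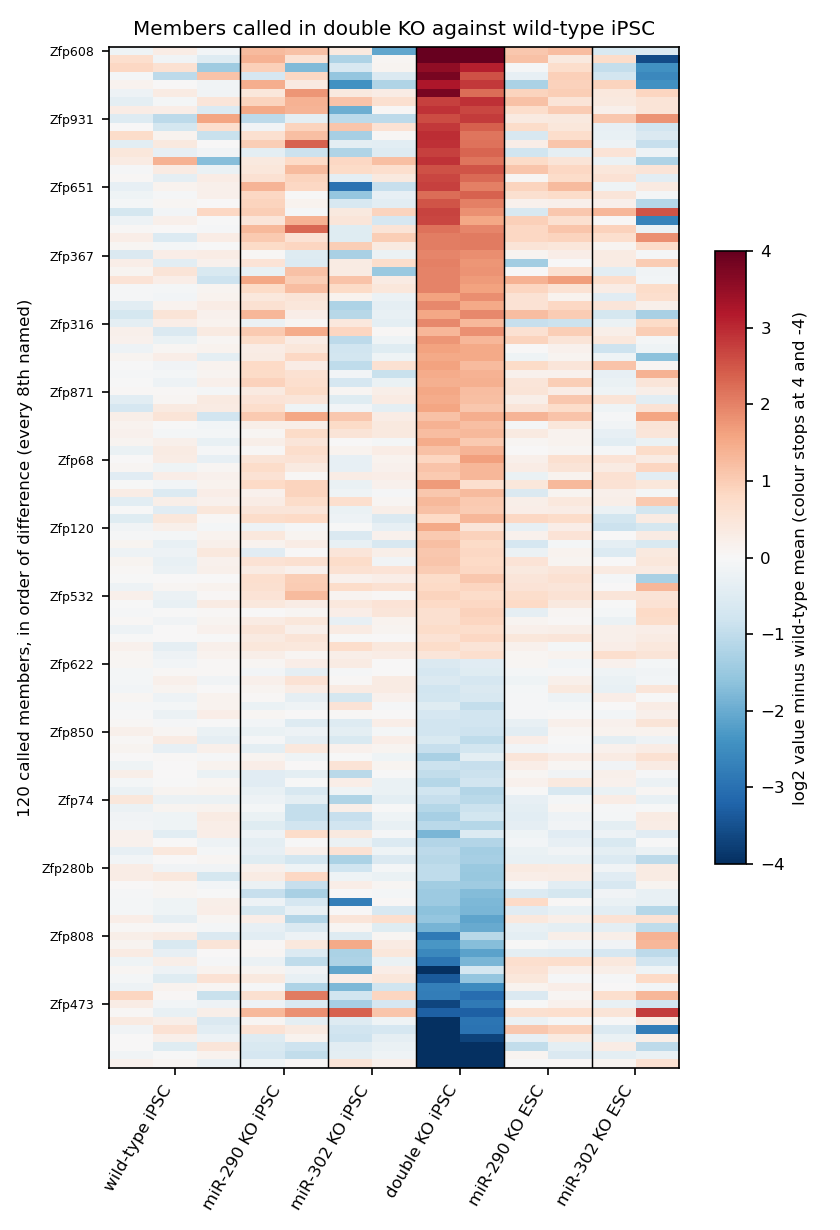
Log2 value of the 120 called members (rows, ordered by the difference between double knockout and wild type, every 8th named) in the 13 samples (columns, grouped), as the difference from the wild-type mean; colours stop at 4 and -4. The double knockout columns carry the pattern by which the rows were chosen, and the colonies and ESC of the single knockouts are paler, with single samples that depart from their group.

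The microRNAs of the clusters are shown because their seed defines the sites searched for in the members. Sequences are those of RefSeq on GRCm38.p6, written 5' to 3' with the seed (bases 2 to 8) in capitals. The reference used gave 12 arms and had no entry for miR-302a-3p or miR-292a-3p, so the counts cover only the arms found. Of these, 5 have the seed AAGUGCU, 3 from the miR-290 cluster on chromosome 7 and 2 from the miR-302 cluster on chromosome 3. Among the arms found, miR-290a-3p and miR-291b-3p differ from it in the last base of the seed.
miR-291a-3p: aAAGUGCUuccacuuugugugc
miR-294-3p: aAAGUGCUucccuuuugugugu
miR-295-3p: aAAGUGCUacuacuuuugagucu
miR-302b-3p: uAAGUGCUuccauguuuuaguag
miR-302d-3p: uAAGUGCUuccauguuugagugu
miR-290a-3p: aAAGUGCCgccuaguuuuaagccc

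The complement of the shared seed, AGCACTT, was searched on the sense strand of the 3' UTR of 1 transcript per gene. It was present in 72 of 321 members with a 3' UTR (22.4%), against 16.2% of 11839 features. The members' 3' UTRs were also longer, with a median of 1320 bases against 1009 over all features, and a longer UTR holds any 7 bases more often. Members with a match had a median log2 difference between double knockout and wild type of 0.45, and those without one 0.24. The same values over all features were 0.41 and 0.11. In 18 members (5.61%, against 3.38% of all features) the match was followed by A, the stronger form of site. Of these 18, 10 rose and 2 fell, with a median of 1.01, and over all 400 such features 41.2% rose and 12.2% fell, with a median of 0.60. The medians of members and of all features thus had the same sign, and what the sites do was not tested. Against wild type the miR-290 knockout gave a median of 0.43 over the 18 and the miR-302 knockout -0.09, with no call in either.

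**Figure D4:**
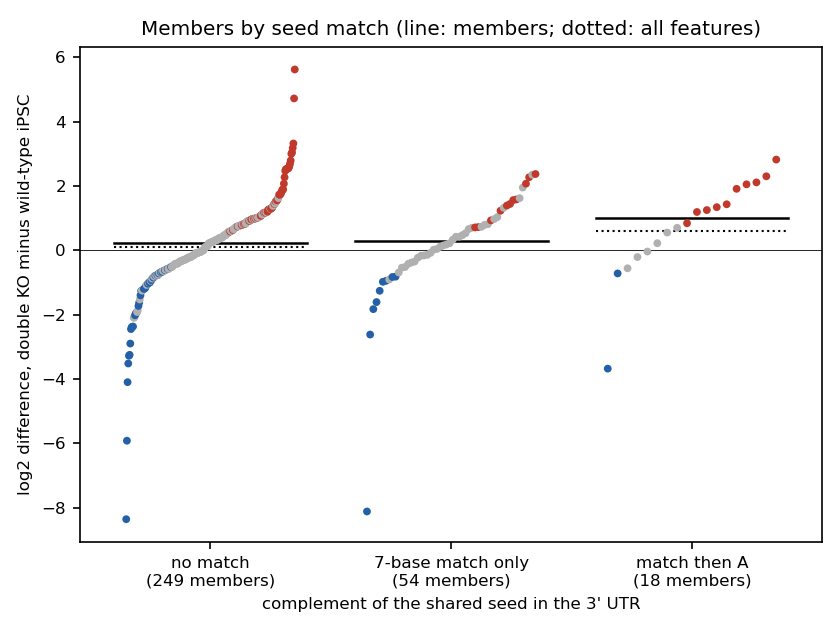
Log2 difference between double knockout and wild-type iPSC (vertical axis) for members with no match to AGCACTT in the 3' UTR, with a 7-base match only, and with a match followed by A; points are members (red called higher, blue called lower, grey not called), solid lines the members' medians and dotted lines the medians of all features of that kind. The medians of the members were 0.24, 0.28 and 1.01.

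Sites are printed from members that rose and from members that fell, so that the surroundings of the same 7 bases can be compared. Each is 28 bases of mm10 in the sense of the transcript, with the match in capitals. Zfp800, a regulator of pancreatic and gut endocrine development, has 3 sites on the minus strand of chromosome 6, at chr6:28241449-28241476, chr6:28241096-28241123 and chr6:28240940-28240967, whose matches begin at bases 193, 546 and 702 of the UTR, and the one at 546 is followed by A. Zfp148 has 2 sites on the plus strand, at bases 902 and 2117 of the UTR, and Zfp367 has 2 on the minus strand, at bases 306 and 1692. Of each pair the one followed by A is printed, at chr16:33498234-33498261 for Zfp148 and at chr13:64133607-64133634 for Zfp367. Zfp422 has 1 site, on the minus strand at chr6:116626261-116626288. Zfp618, which fell, has 2 sites on the plus strand, of which the one followed by A is at chr4:63137078-63137105.
Zfp800, site at 193: aatgcccattccAGCACTTtcgagtcgc
Zfp800, site at 546: aattttttctttAGCACTTaaatgtttg
Zfp800, site at 702: aattttatataaAGCACTTtaatgatag
Zfp148: cagttgacatagAGCACTTagaattaat
Zfp422: gctttacagtagAGCACTTagataccgc
Zfp367: attttaacttggAGCACTTataagtatg
Zfp618: attatacatggaAGCACTTattctcagc

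Zfp800 was at 5.62, 7.09 and 10.5 CPM in wild-type iPSC, at 14 and 19.9 CPM in the miR-290 knockout colonies, at 20.7 and 12.1 CPM in the miR-302 knockout colonies and at 50.4 and 57.2 CPM in the double knockout. The ESC had 16.9 and 10.8 CPM without miR-290 and 9.87 and 10.9 CPM without miR-302. All 4 single knockout iPSC samples lay above all 3 wild-type samples and below both double knockout samples, and the double knockout difference was 2.82 (SE 0.33, limma adjusted p = 2.43e-05). Zfp422 went from 10.2, 11.1 and 13.1 CPM to 54.8 and 59.9 CPM (2.30), and Zfp367 from 11, 19.7 and 20.2 CPM to 64.2 and 60.1 CPM (1.91). For these 2 genes the single knockout iPSC samples, at 6.22 to 20.7 CPM for Zfp422 and 10.4 to 17.2 CPM for Zfp367, overlapped wild type.

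In 7 of the 96 sites found in members, CCC stood directly before the match and GGG directly after it. Near matches to this rule, such as sites in Zfp81 and Zfp799, were not counted. All 7 lie in KRAB members, none of which rose in the double knockout and 2 of which fell, Zfp459 and Zfp568. Over all features 27.4% rose and 21.5% fell. The surrounding letters of the 7 sites were nearly the same from gene to gene. Sites of this form were counted in members only, so they cannot be called particular to KRAB genes. The site of Zfp459 is on the minus strand at chr13:67406672-67406699, that of Zfp568 on the plus strand at chr7:30025018-30025045 and that of Zfp617, which was not called (0.70, limma adjusted p = 0.068), on the plus strand at chr8:71933886-71933913.
Zfp459: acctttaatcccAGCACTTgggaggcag
Zfp568: accttttatcccAGCACTTgggaggcag
Zfp617: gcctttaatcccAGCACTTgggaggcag

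Members lie in arrays, and 147 of the 322 with a position fell into 15 clusters of at least 5 members with gaps under 1 Mb. Clusters are named here by chromosome and a letter. Cluster counts here and below are to be read against the 27.4% of all features called higher and 21.5% called lower. The largest, on chromosome 13 (chr13:67069399-67827002, 20 members), had 1 member higher and 4 lower in the double knockout, with a median of -0.06. It holds Zfp459 (-8.12) beside Zfp595, which rose from 2.02, 1.10 and 2.08 CPM to 7.41 and 7.56 CPM (2.07). Cluster 17a (chr17:21008903-23599487, 19 members) had 7 higher and 1 lower and a median of 0.72, with values from 3.32 for Zfp54 to -1.83 for Zfp229. Cluster 17b (chr17:32765496-33631779, 13 members) had 1 higher and 2 lower and a median of -0.42. Its highest and lowest values were those of Zfp871, which rose from 50.6, 50.2 and 46.4 CPM to 143 and 115 CPM (1.39), and of Zfp870, which fell (-1.61). Cluster 7f (chr7:29768552-30134950, 13 members) had 1 higher and 5 lower and a median of -0.56, with values from 1.27 for Zfp260 to -1.94 for Zfp566. Each of these 4 clusters thus held members called in either direction.

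Of the clusters of chromosome 7, 7a (6 members) had 3 higher and none lower and a median of 0.98, with Zfp784 highest (2.27, not called without double knockout colony 1, at 1.83) and Zfp865 lowest (0.23, not called). Cluster 7b (10 members) had none higher and 2 lower, from Zfp787 (0.77, not called) to Zfp418 (-1.63). Cluster 7c (7 members) had 2 higher and 1 lower, from Zfp324 (1.89) to Zfp446 (-0.95). The call of Zfp418 was lost in 16 of 24 alternatives and that of Zfp446 in 11, and that of Zfp324 without double knockout colony 1 (1.78). Cluster 7d (10 members) had 1 higher and 1 lower, from Zfp575 (1.95, not called) to Zfp428 (-1.17), and 7e (6 members) had 2 higher and 1 lower, from Zfp36 (1.73) to Zfp850 (-0.79). The calls of Zfp428 and Zfp850 were each lost in 4 of 24 alternatives; without double knockout colony 1 Zfp428 was at -0.53, and Zfp850 was not called without colony 1 (-0.81) or colony 2 (-0.77). Cluster 7g (7 members) had none higher and 2 lower, from Zfp658 (1.15, not called) to Zfp936 (-8.36). Cluster 7h (10 members) had 3 higher and 1 lower, from Zfp768 (3.0) to Zfp553 (-2.02). Elsewhere, the cluster of chromosome 6 (9 members) had 2 higher and 2 lower, from Zfp282 (2.47) to Zfp775 (-5.92), and that of chromosome 15 (6 members) 1 higher and 1 lower, from Zfp647 (1.29, not called) to Zfp7 (-1.11). The cluster of chromosome 8 (5 members) had none higher and 1 lower, Zfp869 (-0.90); the other 4 were not called, and Zfp866 (-0.23) was at 0.01 without double knockout colony 2. On chromosome 9 (6 members) 1 was called higher, and values ran from -0.14 for Zfp846 to 1.62 for Zfp560, neither called.

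**Figure D5:**
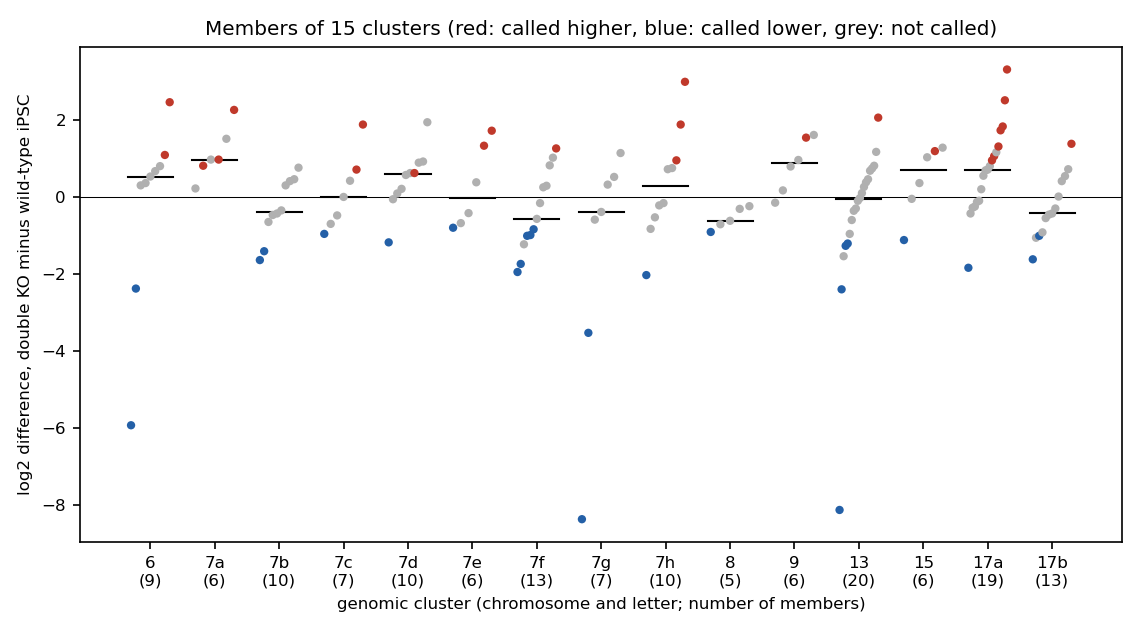
Log2 difference between double knockout and wild-type iPSC (vertical axis) for the members of the 15 genomic clusters (horizontal axis, with the number of members); points are members, coloured by call, and lines are medians. Clusters 17a and 7f had medians of 0.72 and -0.56, and the members far below the rest are Zfp936 in 7g, Zfp459 in 13 and Zfp775 in 6.

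The comparison of the miR-290 knockout with wild-type iPSC asked what the loss of that cluster alone changes. 1 member was called, Zfp870, a KRAB gene of cluster 17b, against 1.57% of all features. It was at 28.3, 30.3 and 28.3 CPM in wild type and at 15.7 and 11.7 CPM in the miR-290 knockout colonies (log2 difference -1.10, SE 0.23, limma adjusted p = 0.0343). The miR-302 knockout colonies had 29.3 and 27.6 CPM, the double knockout 10.4 and 8.61 CPM, and the ESC 19.7 and 17.9 CPM without miR-290 and 26.2 and 23.7 CPM without miR-302. Every sample without miR-290 thus lay below every sample that had it. Zfp870 has 2 matches to the seed complement in its 3' UTR, neither followed by A. The call was lost in 9 of 24 alternatives, with values from -1.29 to -0.91. These included leaving out any 1 wild-type library, miR-290 knockout colony or miR-290 knockout ESC library. At an unadjusted p under 0.05, a looser cut than that of the 1.57%, there were 32 members. Counts at that cut, here and below, stand without the share of all features, so they cannot show an excess of members. The median of all 324 was 0.14, as over all features. Next to the threshold stood Zfp326 (1.01, limma adjusted p = 0.0566), which went from 26.2, 25.7 and 29.3 CPM to 47.1 and 64.4 CPM.

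In the miR-302 knockout no member was called against wild-type iPSC by limma, where the rule on adjusted p called 0.0313% of all features. At an unadjusted p under 0.05 there were 36 members. The median member was at -0.14 and the median feature at -0.11. The smallest p was that of Zfp710, which was at 69.8, 87.7 and 83.7 CPM in wild type and at 44.5 and 50.0 CPM in the knockout (-1.30, limma adjusted p = 0.233). When miR-302 knockout colony 2 was left out, so that only colony 1 stood for the group, 20 members were called, 3 higher and 17 lower, where 9.96% of all features were. The spread then came from the other groups, and the lone colony was taken to vary as they do. 1 library of colony 1 stood apart from its group, with a correlation over members of 0.789, against 0.869 to 0.891 in the other 3. Comparisons with wild type share its 3 libraries, so their values are not independent.

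Against the miR-290 knockout iPSC, the double knockout, in which miR-302 was lost as well, had 29 members higher and 34 lower, where 32.4% of all features were called. Against the miR-302 knockout iPSC it had 74 higher and 40 lower, where 46.9% were called. Zfp608, Zfp711 and Zfp54 were the largest rises over the miR-290 knockout (4.42, 3.74 and 3.73), and Zfp936, Zfp459 and Zfp775 the largest falls (-8.29, -7.28 and -5.21). Over the miR-302 knockout the largest rises were those of Zfp608 (6.46), Zfp711 (5.29) and Zfp287 (4.86), and the largest falls again those of Zfp936 (-8.72), Zfp459 (-7.84) and Zfp775 (-5.58). The calls of Zfp711 and Zfp54 over the miR-290 knockout were lost when double knockout colony 1 was left out (3.74 and 3.52) or when miR-290 knockout colony 2 was (3.35 and 2.36). That of Zfp711 was also lost without double knockout colony 2 (3.75). Both comparisons share the double knockout colonies. Leaving out double knockout colony 1 lowered both counts of member calls, and leaving out miR-290 knockout colony 1 or 2 lowered the first. The share of all features called in those fits is not given here.

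Whether the double knockout departs from the sum of the single knockouts was tested as an interaction of the clusters on the log2 scale. 19 members lay above the sum and 19 below it, against 23.6% of all features called. Zfp608 (5.25, SE 1.02, limma adjusted p = 0.00332), Zfp931 (4.47) and Zfp711 (4.31) lay farthest above the sum. These genes had very low levels in some single knockout samples, where the log2 value depends on the prior. Zfp936 (-8.64), Zfp459 (-7.00) and Zfp534 (-6.57) lay farthest below it. Zfp534 was at 2.72, 2.38 and 2.91 on the log2 scale in wild type, at 3.96 and 4.50 without miR-290, at 5.02 and 3.78 without miR-302 and at -0.61 in both double knockout colonies. All single knockout iPSC samples lay above, and the double knockout colonies below, all wild-type samples. The call of Zfp711 was lost in 13 of 24 alternatives. With the replicate number as a block there were 25 member calls. Leaving out double knockout colony 1, miR-290 knockout colony 2 or miR-302 knockout colony 1 also lowered the count. The share of all features called in those fits is not given here, so the drops cannot be called particular to the members.

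The miR-290 knockout was also set against the miR-302 knockout in each cell type. In iPSC 3 members were called, against 2.25% of all features. Zfp651 was at 6.53 and 4.08 CPM without miR-290 and at 0.166 and 1.12 CPM without miR-302 (3.04), with 1.74, 2.47 and 2.58 CPM in wild type. Zfp423 was at 23.9 and 21.7 CPM and at 2.56 and 8.49 CPM (2.40), and Zfp870 was lower without miR-290 (-1.06). In ESC no member was called by limma, with 33 at an unadjusted p under 0.05 and 0.587% of all features called, though 9 members were called when miR-302 knockout ESC replicate 1 was left out (2.79% of all features). The ESC values had the same signs, with 0.99 for Zfp651, 0.48 for Zfp423 and -0.40 for Zfp870. A test of the difference between the iPSC and ESC contrasts gave limma adjusted p = 0.984 for each of the 3. The genes were picked by their iPSC calls, and with 2 samples a group that test cannot show that the contrasts are alike. The number of iPSC calls depended on the fit. It was 0 when samples were weighted, when only the groups compared were fitted, with the replicate number as a block, or when wild-type replicate 2, miR-290 knockout colony 2 or either miR-290 knockout ESC library was left out. It was 1 without wild-type replicate 1 or miR-290 knockout colony 1, and 23 without miR-302 knockout colony 2 (10% of all features). Without miR-302 knockout colony 1 it was 0, with values of 1.4 for Zfp423 and 2.02 for Zfp651.

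Single knockout iPSC were finally compared with ESC of the same genotype, which were not made by reprogramming. Between miR-290 knockout iPSC and ESC no member was called by limma, with 7 at an unadjusted p under 0.05 and 0% of all features called. Between miR-302 knockout iPSC and ESC no member was called either, with 33 at an unadjusted p under 0.05 and 0% of all features called, but 19 were called when miR-302 knockout iPSC colony 2 was left out, where 7.47% of all features were and the group was again 1 colony. Of the members with large changes in the double knockout, Zfp459 was at 41.3 and 33.8 CPM in miR-290 knockout iPSC and at 71.5 and 44.8 CPM in ESC, and Zfp819 at 24.9 and 18.4 CPM and at 20.1 and 22.7 CPM. Neither pair was called, and with 2 samples a group small differences were not detectable.

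The authors' deposited table of double knockout against wild type holds only genes at an adjusted p of at most 0.05. It lists 8672 features in all, among them 161 members, 74 higher and 87 lower. More members fell than rose in that table, while more rose than fell among the calls made here. Of the 120 members called here 113 are in the authors' table, and all 161 had the same sign here. Among the listed members that were not called here are Zfp57 (0.79 in the authors' table), Zfp961 (-1.05) and Zfp292 (-0.38). Their table for the miR-290 knockout lists 1429 features, among them 19 members, 13 higher and 6 lower. That for the miR-302 knockout lists 43 features and no member. How many features the authors tested is not given here, so these counts cannot show an excess or a lack of members. The authors' table gives Zfp936 a log2 fold change of -10.36, Zfp459 -9.49 and Zfp775 -9.27, and Zfp608 and Zfp711 5.69 and 4.43. Its values lay below those of limma in 158 of the 161 members, with a median of the authors' value minus that of limma of -0.30 on the log2 scale, -0.29 among members with positive and -0.30 among those with negative limma values. The cause was not tested.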

How the data were processed

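QuantSeq 3' end libraries (19, in 6 groups) were sequenced as single-end reads; the submitters' processing notes name STAR, Salmon 1.4.0, limma, DESeq2 1.34.0 and mm10, with no roles. The authors' deposited matrix holds log2 values; 6 of its columns are no libraries of this series and were not used. The values are log2 CPM with a prior proportional to library size and a constant per gene: this gave whole reads within 0.02 of a read in at least 13 libraries for 12232 of 12778 features (95.7%), and 99.7% of their values were whole. The authors' deposited tables hold, per the file headers, log2 fold changes, a test score, p-values cut at an adjusted p of 0.05 and a signal, the mean normalized count, which lay within 5% of the recovered reads for 100% of the features checked. Libraries held 6143310 to 23828600 recovered reads (median 16722425), and floors and intervals cover counting error only.

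Libraries of the same colony were averaged, which left 13 samples. limma 3.58.1 (R 4.3.3) fitted all features and 6 groups at once, with 7 residual degrees of freedom and a trend. Calls were made where p adjusted by Benjamini and Hochberg over 12778 features was under 0.05. Differences are on the log2 scale with the prior, which understates changes of weakly expressed genes. If the wild-type libraries are 1 derivation, p-values are too small. A count model had been planned should the matrix hold counts, and limma was used because it holds log2 values. The script was tested on simulated data.

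Members and gene lists were chosen with earlier results of these data known. Named are the 10 largest called differences in each direction between double knockout and wild type, at most 3 in each direction in the other comparisons, called members of the role lists with Zfp57, Zfp281 and Zfp809, the 5 highest levels, and the ends of each cluster; members outside this rule (sites, colonies) were chosen after their values were seen. Alternatives were other scalings, filters, spreads, weights, a replicate block, and leaving samples out. Numbers shared between groups did not pair samples: same-numbered samples correlated at -0.27 to 0.18.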

Additional observations from a re-analysis of the deposited data

Results flagged for a closer look

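In groups of 4 libraries, 22 of 198 pairs of named gene and group had a library that lay apart from the other 3. A chance rate of about 1 in 20 holds for independent values, and these are 2 libraries from each of 2 colonies. Where the other 3 are at 0, 1 read is enough, as for Zfp775 and Zfp536 in the double knockout. The 22 thus cannot be set against that rate. In the miR-302 knockout iPSC, colony 1 library 2 was the library in 7 of them. It was high for Zfp608 (4.32 CPM, others 0) and low for Zfp819 (13.2 CPM, others 20.2 to 21.2), Zfp473 (6.38 CPM, others 15.3 to 17.3), Zfp536 (0.0939 CPM, others 1.65 to 2.51), Zfp809 (13.9 CPM, others 25.2 to 26.7), Zfp7 (13.2 CPM, others 29.5 to 33.2) and Zfp282 (5.07 CPM, others 15.2 to 16.4). Colony 2 library 2 of that group stood apart for Zfp287 (0.665 CPM, others 0) and Zfp385a (4.19 CPM, others 12.9 to 13.6).

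In the miR-290 knockout iPSC, colony 1 library 2 was high for Zfp870 (19.4 CPM, others 11.5 to 12.1) and Zfp651 (9.19 CPM, others 3.86 to 4.22), and library 1 of that colony for Zfp566 (16.4 CPM, others 11.5 to 11.7). Colony 2 library 1 was high for Zfp931 (-0.89 on the log2 scale, others -2.23) and low for Zfp869 (39.6 CPM, others 55.2 to 57), and library 2 of that colony was low for Zfp324 (0.973 CPM, others 3.43 to 4.17). In the double knockout, colony 1 library 2 stood apart for Zfp608 (25.1 CPM, others 31.8 to 32.7) and Zfp775 (0.0744 CPM, others 0), and library 1 for Zfp536 (0.0659 CPM, others 0) and Zfp710 (9.62 CPM, others 13.8 to 14.7). Colony 2 library 2 was low for Zfp410 (33 CPM, others 38.7 to 39.3) and Zfp560 (1.51 CPM, others 2.77 to 3.12), and library 1 for Zfp787 (13.5 CPM, others 16.4 to 16.7).

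The interaction test called a departure from the sum of the single knockouts for Zfp608 (5.25), Zfp931 (4.47), Zfp711 (4.31), Zfp936 (-8.64), Zfp459 (-7.00) and Zfp534 (-6.57), all on the log2 scale. The call of Zfp711 was lost in 13 of 24 alternatives. Zfp608 was at 0 CPM in all miR-302 knockout iPSC libraries but colony 1 library 2. Zfp931 was at -2.23 in all miR-290 knockout iPSC libraries but colony 2 library 1. At such low levels the size of a departure depends on the prior.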

How the results depend on the processing

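Of 87 named results 76 were called, 48 of them in every alternative. Only uncalled values changed sign in any alternative: Zfp865 (-0.12) and Zfp575 (-1.99) without double knockout colony 1, and Zfp866 (0.01) without colony 2, in ranges over left-out samples of -0.12 to 0.60, -1.99 to 5.88 and -0.47 to 0.01. Leaving out 1 sample at a time gave 66 to 126 members called for double knockout against wild type, 30 to 69 against the miR-290 knockout, 69 to 120 against the miR-302 knockout and 20 to 51 for the departure from the sum. It gave 0 to 2 for the miR-290 knockout and 0 to 20 for the miR-302 knockout against wild type, 0 to 23 between the single knockout iPSC, 0 to 9 between the ESC, 0 for miR-290 knockout iPSC against ESC and 0 to 19 for miR-302 knockout iPSC against ESC. For the miR-290 knockout against wild type, taking each library as a sample gave 5 calls, a correlation within colony 4, sample weights 3, leaving out miR-302 knockout colony 1 library 2 also 3, and fitting only the groups compared or the replicate block 0. Between the single knockout iPSC the same settings gave 12, 10, 0, 5, 0 and 0. Between the ESC, median-of-ratios scaling, the filter at 1 CPM, robust moderation, sample weights and leaving out that library each gave 1. The replicate block left 25 calls for the departure from the sum and 101 for double knockout against wild type. A shared number gave no sign of pairing, since differences of sample 1 from sample 2 correlated between groups at -0.27 to 0.18. Shares of all features called in these fits are mostly not given, so the shifts cannot be read as particular to the members. The causes of the shifts were not tested. Depth limits members near 1 CPM, and 2 samples in most groups limit the rest.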

Other observations

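The double knockout colonies differed most in Zfp575, a gene of cluster 7d. Its level was 102 and 121 CPM in colony 1 and 0.239 and 0.439 CPM in colony 2, a difference of 7.87 on the log2 scale, and 0.847 to 5.35 CPM in all libraries of the other groups. Zfp286 was at 0 and 0.0744 CPM in colony 1 and at 3.77 and 2.38 CPM in colony 2, and Zfp516, a regulator of brown fat genes, at 2.83 and 9.82 CPM and at 38.6 and 43.7 CPM. Of 274 members with whole reads and a mean of at least 1 CPM, these 3 were the only ones whose double knockout colonies differed by 2 or more on the log2 scale, and the median absolute difference was 0.28. The miR-290 knockout colonies had 4 such members and the miR-302 knockout colonies 11. Zfp57, the guardian of imprints, was among the 4, at 17.5 and 10.6 CPM in colony 1 and at 69.3 and 74.6 CPM in colony 2. For Zfp575, Zfp286 and Zfp516 in the double knockout and Zfp57 in the miR-290 knockout, the libraries of a colony lay closer to each other than to those of the other colony. These genes were picked for their differences, so no test is given, and 1 colony on each side cannot tell a clone from a genotype.

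All 7 members on the X chromosome were above 0 in the double knockout against wild type, with a median log2 difference of 1.19 and 3 of them called, while the 427 features of that chromosome had a median of 0.35. The 3 members of chromosome 1 all fell, with a median of -0.77 against 0.24 for its 675 features. Over all features 49.0% were called, 27.4% higher and 21.5% lower, so 3 calls among 7 members are no excess. Both chromosomes were picked from all chromosomes after the values were seen.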
